A study of Homo sapiens with 2 samples.

Results

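Calpains are calcium-dependent cysteine proteinases, and calpastatin is the protein that inhibits them. The 10 genes described here were taken by symbol from the 27685 genes of the deposited table: the catalytic calpains CAPN1, CAPN2, CAPN5, CAPN7, CAPN8, CAPN10, CAPN13 and CAPN15, the small subunit gene CAPNS1 and the calpastatin gene CAST. All 10 were found, with 39 of the 63714 listed transcripts. RNA-seq had been performed on 1 library of untreated H2087 cells and 1 library of untreated H596 cells, both established cell lines that the labels call lung adenocarcinoma. The labels name no transgene or treatment for either line, and both were grown in the same serum-supplemented medium. The H2087 library held 46961500 estimated counts over genes and the H596 library 55387847. Values are FPKM, fragments scaled to transcript length and to the number of mapped fragments, so levels of different genes can be set side by side within a library. With 1 library per cell line there was no replicate check and no test, and the 95% intervals cover counting error only.

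In the conventional calpains the product of CAPN1 or CAPN2 carries the active site and pairs with a small regulatory partner, the product of CAPNS1. Calpastatin binds these enzymes when calcium has opened them and blocks their active site. They cut a limited number of sites in cytoskeletal, adhesion and signaling proteins, and in epithelial tumor cells they are known for the turnover of cell adhesions during migration. The other calpains are expressed more narrowly or lack the domain that pairs with the small subunit. Only RNA was measured in these data, and neither enzyme activity nor protein was.

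The markers of the labelled cell type were uneven. NKX2-1, a lung lineage transcription factor, had an FPKM of 110.0 in H2087 and of 0.508 in H596, and NAPSA had 21.9 and 0.0645. SFTPB had 22 counts in H2087 and 0 in H596, and SFTPC had 0 and 2. The 5 adenocarcinoma markers summed to an FPKM of 923 in H2087 and of 609 in H596, nearly all of it KRT7. The 5 squamous markers summed to 40.8 and 305. TP63 was at 0.183 and 55.2, KRT5 at 0 counts and 106, KRT6A at 1.48 and 53.7, and DSG3 at 0 counts and 33.9. SOX2, at 39.1 and 56.5, was under 2-fold apart and made up most of the H2087 sum. The H596 library thus had low adenocarcinoma markers other than KRT7, against its label. Of the 4 epithelial markers, KRT18 (3607 and 234), KRT8 (2493 and 536) and EPCAM (375 and 65.0) had a lower FPKM in H596 and CDH1 had 52.3 and 59.6, with sums of 6527 and 894. Of the 5 fibroblast markers, COL1A2 had 0 counts in both libraries, and the others reached an FPKM of 3.89 for COL1A1 in H2087 and 9.77 for DCN in H596. PTPRC, CD3E and HBB, markers of blood cells, had 0 counts in both, and CD68, which encodes a lysosomal protein, had 128 and 25.6. The part of cell type in the differences below was not tested, and fewer cells of a type and less RNA per cell cannot be told apart in bulk RNA.

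Several of these genes have more than 1 annotated start of transcription, and the results on CAST, CAPN2 and CAPNS1 below turn on which start the listed transcripts use. The 150 reference bases before 7 starts are shown, 5′ to 3′ on the gene's strand, from GRCh37, the build of the deposited tables. CAPN8, which has 1 listed start, is included beside these genes. CG dinucleotides, whose density separates broadly used promoters from restricted ones in many genes, are in capitals. Over the 31872 listed starts for which a strand was found, a window of this length held a median of 8 CG dinucleotides (quartiles, 2 and 15). The windows lie at chr1:223889145-223889294 and chr1:223899969-223900118 for CAPN2, at chr1:223853437-223853586 on the minus strand for CAPN8, at chr19:36630678-36630827 for CAPNS1, and at chr5:95997591-95997740, chr5:95998533-95998682 and chr5:96038214-96038363 for CAST. None of the 7 overlaps an annotated exon.
CAPN2, upstream start: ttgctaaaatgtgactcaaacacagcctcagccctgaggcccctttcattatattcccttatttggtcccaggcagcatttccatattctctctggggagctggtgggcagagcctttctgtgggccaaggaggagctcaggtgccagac
CAPN2, main start: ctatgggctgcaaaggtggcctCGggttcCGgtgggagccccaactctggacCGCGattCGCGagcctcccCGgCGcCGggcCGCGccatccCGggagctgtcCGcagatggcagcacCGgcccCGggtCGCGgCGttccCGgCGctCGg
CAPN8: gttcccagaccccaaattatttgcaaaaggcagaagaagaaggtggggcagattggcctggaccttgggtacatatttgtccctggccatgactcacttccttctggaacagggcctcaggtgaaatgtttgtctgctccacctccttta
CAPNS1, first start: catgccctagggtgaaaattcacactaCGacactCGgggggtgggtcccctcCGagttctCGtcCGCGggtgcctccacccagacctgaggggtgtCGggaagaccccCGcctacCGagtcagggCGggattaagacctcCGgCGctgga
CAST, first start: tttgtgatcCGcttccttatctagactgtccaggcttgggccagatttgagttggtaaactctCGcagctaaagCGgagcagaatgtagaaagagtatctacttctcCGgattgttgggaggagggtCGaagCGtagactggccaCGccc
CAST, start at +942: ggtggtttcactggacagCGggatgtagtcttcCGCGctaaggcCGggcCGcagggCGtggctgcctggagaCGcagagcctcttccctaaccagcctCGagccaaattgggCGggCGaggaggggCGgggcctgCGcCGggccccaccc
CAST, start at +40623: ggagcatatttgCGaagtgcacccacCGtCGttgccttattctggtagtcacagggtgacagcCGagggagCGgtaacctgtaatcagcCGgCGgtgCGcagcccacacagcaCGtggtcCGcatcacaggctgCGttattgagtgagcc

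The window before the main start of CAPN2 held 21 CG dinucleotides, and the one before its upstream start held 0. CAPN8 had 0 as well, and CAPN13, whose window at chr2:31030312-31030461 overlaps an annotated exon and is not shown, had 1. CAPN5, CAPN7, CAPN10 and CAPN15 had 21, 18, 22 and 30. The CAPN1 windows held 6, 17 and 12 in order along the gene. The 3 CAPNS1 windows held 12 before the first start, 21 before the start at +201 and 4 before the start at +1494, where + counts bases downstream of the gene's first start. Those at +201 and +1494 overlap annotated CAPNS1 exons and are not shown. The windows shown for CAST held 7, 13 and 11 in the order given. CAPN8 and CAPN13 were the members with 1 or no CG dinucleotide before their only start. They were also the members close to 0 or at 0 in H596. The upstream start of CAPN2, with 0, went the other way, at an FPKM of 13.6 in H2087 and of 37.9 in H596. This describes a few starts and was not tested.

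CAPN2, the large subunit of the calpain named for its need of millimolar calcium, lies on chromosome 1 from 223889295 to 223963720. It had the highest FPKM of the family in H2087 and was level between the libraries. Its FPKM was 237 in H2087 (95% interval, 235 to 239) from 39479 counts and 234 in H596 (232 to 236) from 45828 counts. The ratio of H596 to H2087 was 0.987 (0.974 to 1.0005), so by FPKM the difference was within counting error.

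CAPN1, the large subunit of the calpain that needs less calcium, lies on chromosome 11 between 64948686 and 64979477. The FPKM was 102 in H2087 (95% interval, 100.4 to 104) from 14893 counts and 219.9 in H596 (218 to 222) from 38007 counts. It was therefore 2.16-fold higher in H596 (2.12 to 2.20). The FPKM of CAPN2 was 2.32 times that of CAPN1 in H2087 (2.28 to 2.37) and 1.06 times in H596 (1.05 to 1.08). CAPN1 made up 30.1% of the summed FPKM of both large subunits in H2087 and 48.4% in H596. The first 620 bases of CAPN1 overlap LOC728975, which had an FPKM of 2.65 and 2.12.

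CAPNS1, the small subunit shared by both enzymes, lies on chromosome 19 between 36630828 and 36641255. The FPKM was 149 in H2087 (95% interval, 146 to 152) from 10603 counts and 327 in H596 (323 to 331) from 26273 counts. The gene was 2.19-fold higher in H596 (2.14 to 2.24), about the factor seen for CAPN1. CAPN1 relative to CAPNS1 was 0.684 in H2087 (0.667 to 0.701) and 0.673 in H596 (0.662 to 0.684), and these intervals overlap. CAPN2 relative to CAPNS1 was 1.59 in H2087 (1.55 to 1.62) and 0.716 in H596 (0.705 to 0.727).

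CAST, on chromosome 5 from 95997741 to 96110385, encodes the inhibitor. Its FPKM was 97.1 in H2087 (95% interval, 95.8 to 98.5) from 20663 counts and 80.9 in H596 (79.8 to 82.0) from 20401 counts. The gene was 1.20-fold lower in H596 (1.18 to 1.22), the opposite direction to CAPN1 and CAPNS1. Its 3′ end overlaps listed transcripts of ERAP1, an aminopeptidase gene on the other strand, over 13872 bases. ERAP1 had an FPKM of 10.5 in H2087 and of 19.3 in H596. The library kit keeps the strand, but whether the counting used it is not stated.

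**Figure D1:**
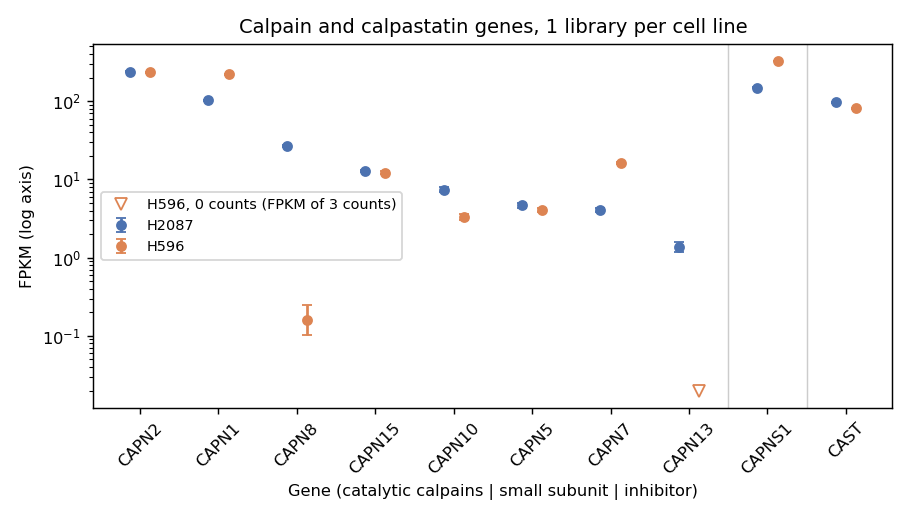
FPKM of the 10 genes (log axis) in the H2087 library (blue) and the H596 library (orange), with 95% counting intervals as bars and grey lines between catalytic calpains, small subunit and inhibitor. The open triangle is the FPKM of 3 counts, 0.0197, for CAPN13 in H596, where it had 0 counts. CAPN2, CAPN1, CAPNS1 and CAST stand above an FPKM of 80 in both libraries, and CAPN8 is at 26.8 in H2087 and 0.161 in H596.

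The balance of subunits and inhibitor followed from these levels. CAPN1 plus CAPN2 had a summed FPKM of 339 in H2087 and of 454 in H596. Relative to CAPNS1 this was 2.27 in H2087 (95% interval, 2.23 to 2.32) and 1.39 in H596 (1.37 to 1.41), a 1.64-fold lower ratio in H596 (1.60 to 1.68). From the highest transcript of each gene in each library the ratio was 4.56 in H2087 and 2.64 in H596. The CAPNS1 transcript used there was not the same, NM_001749 in H2087 and NM_001302633 in H596. From counts without length the ratio was 5.13 and 3.19, so its size depends on the measure while the order of the libraries was kept. The H596 library thus had less large subunit RNA for each unit of small subunit RNA, and large subunit RNA exceeded small subunit RNA in both libraries.

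Relative to the inhibitor the order of the libraries was the other way round. CAPN1 plus CAPN2 over CAST was 3.49 in H2087 (95% interval, 3.43 to 3.55) and 5.61 in H596 (5.53 to 5.70), 1.61-fold higher in H596 (1.57 to 1.64). CAPN1 alone was close to CAST in H2087, at a ratio of 1.05 (1.03 to 1.07), and 2.72 times CAST in H596 (2.67 to 2.77). CAPN2 alone was 2.44 times CAST in H2087 (2.40 to 2.48) and 2.89 times in H596 (2.85 to 2.94). The widest gap between the libraries among these ratios was that of CAPNS1 over CAST, 1.54 in H2087 (1.5003 to 1.57) and 4.04 in H596 (3.97 to 4.12). Ratios within a library do not depend on how the libraries were scaled to each other. They do depend on which transcripts are counted. From the highest transcript of each gene alone, CAPN1 plus CAPN2 over CAST was 12.4 in H2087 and 11.7 in H596. This turns the order of the libraries. That setting leaves out the other transcripts, and the highest CAST transcript held 26.7% of the gene FPKM in H2087 and 43.3% in H596. Other ways of dividing reads between transcripts were not examined.

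**Figure D2:**
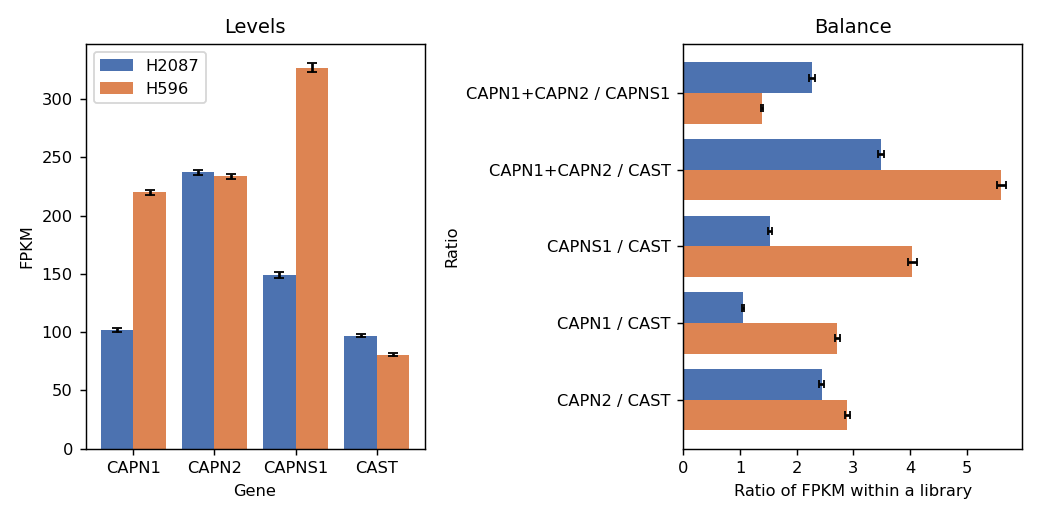
Left, FPKM of CAPN1, CAPN2, CAPNS1 and CAST in H2087 (blue) and H596 (orange). Right, ratios of FPKM within each library. Error bars are 95% counting intervals. CAPN1 and CAPNS1 are higher in H596 while CAPN2 is level and CAST slightly lower, so CAPN1 plus CAPN2 over CAST is 3.49 in H2087 and 5.61 in H596.

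The remaining 6 catalytic calpains were much lower than CAPN1 and CAPN2. Over the 14 genes for catalytic or catalytic-like calpains in the table, CAPN1 and CAPN2 together made up 85.0% of the FPKM in H2087 and 91.6% in H596. The other 12 summed to an FPKM of 60.0 in H2087 and of 41.7 in H596. An FPKM of at least 1 was reached by 10 of the 14 in H2087 and 7 in H596. Of the 10 genes described here, subunit and inhibitor included, it was 10 in H2087 and 8 in H596, the exceptions being CAPN8 and CAPN13. The share of all genes at this level was not worked out, so these counts are not read as a trait of the family.

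CAPN8, a calpain first described in the stomach lining, showed the largest log2(FPKM + 1) difference among the 10 genes. It lies on chromosome 1 between 223714972 and 223853436. The FPKM was 26.8 in H2087 (95% interval, 25.8 to 27.8) from 2695 counts and 0.161 in H596 (0.104 to 0.248) from 20 counts, 167-fold lower in H596 (107 to 259). CAPN8 and CAPN2 are neighbours that point away from each other, with 35858 bases between the CAPN8 start and the first CAPN2 start and 0 other listed genes between them. By FPKM, CAPN2 differed by less than counting error across the same libraries.

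CAPN13, a little-studied calpain on chromosome 2 from 30945638 to 31030311, was the lowest member. The H2087 library gave an FPKM of 1.37 (95% interval, 1.19 to 1.59) from 177 counts, and the H596 library had 0 counts. With 3 counts per library as the limit that a count of 0 allows, an FPKM of 0.0197, it was at least 69.8-fold lower in H596. Its mean FPKM was below 1, so it was left out of the counts of differing genes.

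CAPN7, which does not pair with the small subunit and is known to bind proteins of endosomal sorting, was the member with the largest difference towards H596. The gene lies on chromosome 3 between 15247733 and 15294423. The FPKM was 4.08 in H2087 (95% interval, 3.81 to 4.36) from 854 counts and 16.4 in H596 (15.9 to 16.9) from 4061 counts, 4.02-fold higher in H596 (3.73 to 4.33). In H2087 it was the lowest but one of the 10 genes, and in H596 it was the highest of the calpains other than CAPN1 and CAPN2.

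CAPN10, a calpain known as a candidate gene for type 2 diabetes, lies on chromosome 2 between 241526133 and 241538526. The FPKM was 7.41 in H2087 (95% interval, 6.94 to 7.91) from 887 counts and 3.30 in H596 (3.02 to 3.60) from 495 counts. By FPKM it was 2.25-fold lower in H596 (2.01 to 2.51), and by log2(FPKM + 1) the difference was -0.97, just short of 2-fold. One of its 2 listed transcripts, NM_023085, had 249 counts in H2087 and 0 in H596, and the other, NM_023083, had an FPKM of 5.03 and 3.30. CAPN5, CAPN7, CAPN8, CAPN13 and CAPN15 are each listed with 1 transcript.

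CAPN15, which carries zinc fingers, and CAPN5, a relative of a sex determination protein of nematodes, were close to level. CAPN15, on chromosome 16 from 577856 to 604636, stood at an FPKM of 12.8 in H2087 (95% interval, 12.4 to 13.3) and 12.2 in H596 (11.8 to 12.7), and the interval of their ratio, 0.907 to 1.0025, held 1. CAPN5, on chromosome 11 from 76777992 to 76837198, had an FPKM of 4.65 in H2087 (4.37 to 4.95) and 4.04 in H596 (3.80 to 4.30), a ratio of 0.869 (0.796 to 0.949). In each library the order of the 10 genes was beyond counting error, since no neighbours in that order had overlapping intervals.

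Across the genes, 9 of the 10 had a mean FPKM of at least 1 and were compared on the log2(FPKM + 1) scale as the H596 value less the H2087 value. CAPN1, CAPN7 and CAPNS1 were at least 2-fold higher in H596, CAPN8 was at least 2-fold lower, and CAPN2, CAPN5, CAPN10, CAPN15 and CAST differed by less. Of all 13047 genes with such a mean, 18.2% were at least 2-fold higher and 14.2% at least 2-fold lower. The differences were 1.10 for CAPN1, 1.78 for CAPN7, 1.13 for CAPNS1 and -4.58 for CAPN8. The median over all genes was 0.12, and relative to it CAPN1 differed by 0.98 and CAPNS1 by 1.01. The ratio interval left out 1 for 7 of the 9 genes, the others being CAPN2 and CAPN15. Of the 13047 genes, 91.3% had such an interval or a count of 0 against more than 3 counts.

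The scaling of the libraries decided several of these calls. After TMM scaling, which makes the median difference of all genes 0.00, CAPN1 (0.97) and CAPNS1 (0.99) fell just under 2-fold and CAPN10 (-1.08) passed it, which left 1 member higher and 2 lower. With TPM, where the median was 0.30, CAPN1 and CAPNS1 differed by 1.29 and 1.31. CAPN2 had a difference of -0.02 by FPKM, 0.16 by TPM and -0.15 after TMM scaling, and CAPN15 one of -0.06, 0.11 and -0.19, so their direction flips with the scaling. CAST was lower in H596 under each, with differences of -0.26, -0.08 and -0.39. The ratio intervals, those of CAPN2 and CAPN15 that held 1 among them, were computed from FPKM only. They do not cover the choice of scaling.

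**Figure D3:**
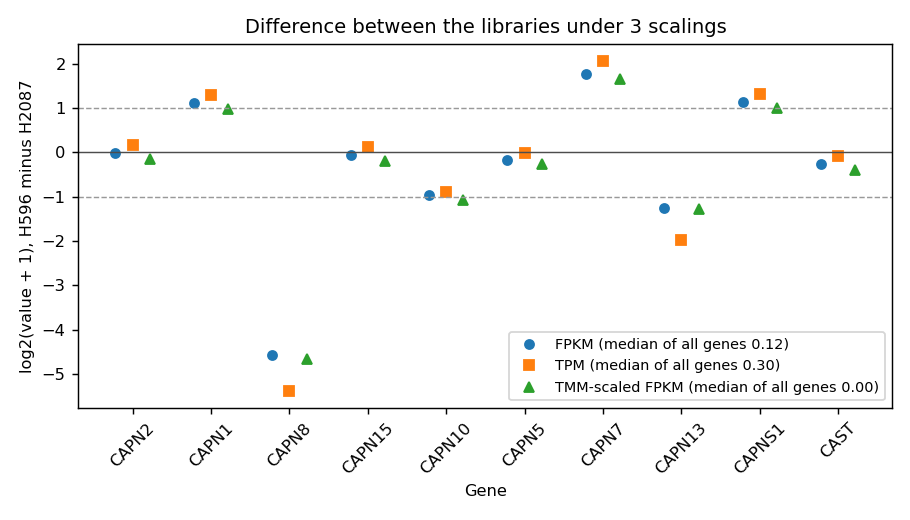
Difference of log2(value + 1) between the libraries, H596 minus H2087, for the 10 genes from FPKM (circles), TPM (squares) and TMM-scaled FPKM (triangles). Dashed lines mark 2-fold. CAPN7 is above and CAPN8 below 2-fold under each scaling, while CAPN1 and CAPNS1 are at 0.97 and 0.99 after TMM scaling.

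Among the members with several annotated starts, CAST, CAPNS1 and CAPN2 divided their FPKM differently in the 2 libraries and CAPN1 did not. For 3 of these 4 genes the share of some start was apart by at least 10 percentage points. The same held for 32.0% of the 1894 genes with several starts and a mean FPKM of at least 10. Taken by transcript, the same 3 of 4 members passed 10 points, against 41.3% of 4264 genes with several transcripts and such a mean. CAPN10, the other member with several transcripts, was left out of both counts, since it has 1 start and a mean FPKM below 10, although the share of NM_023083 went from 67.9% in H2087 to 100% in H596. Shifts of this size were therefore common, and how reads in shared exons are assigned to transcripts is an estimate whose error the counting intervals do not cover.

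In CAPN1, transcript NM_005186 held 96.2% of the FPKM in H2087 and 96.6% in H596, and no start moved by more than 0.407 percentage points. In CAPN2, NM_001748, from the start with 21 CG dinucleotides before it, held 94.3% in H2087 and 83.8% in H596. NM_001146068, which begins 10824 bases further upstream after a window with 0 CG dinucleotides, had an FPKM of 13.6 in H2087 and of 37.9 in H596. Its share was 5.75% and 16.2%. The level gene value of CAPN2 was thus the sum of a transcript that was 2.78-fold higher in H596 and one that was 1.14-fold lower, the latter 1.25-fold lower with TMM scaling and 1.004-fold lower with TPM.

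In CAPNS1, the first start gave an FPKM of 108 in H2087 and of 161 in H596, through NM_001749 (70.5 and 116) and NM_001003962 (37.4 and 45.1). The start at +1494, used by NM_001302633, gave 40.3 and 154.8. Its share was 27.0% in H2087 and 47.4% in H596, and that of the first start 72.3% and 49.3%. The start at +201, used by NM_001302632, was minor, with an FPKM of 0.985 and 10.8. In order along the gene, the 3 starts were higher in H596 by 1.49-fold, 10.9-fold and 3.84-fold, so the 2.19-fold difference of the gene was uneven between its transcripts.

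**Figure D4:**
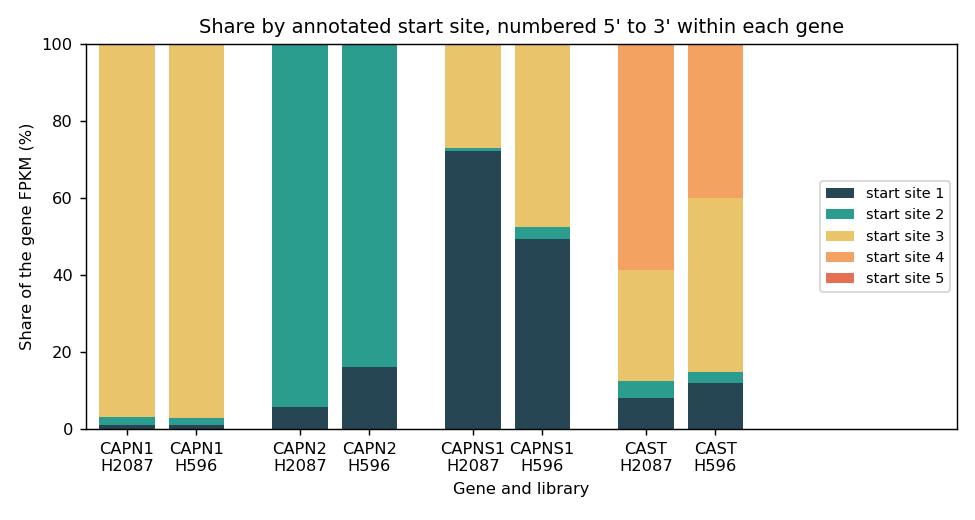
Share of the gene FPKM (%) held by each annotated start site, numbered 5′ to 3′ within the gene, for CAPN1, CAPN2, CAPNS1 and CAST in each library. CAPN1 is alike in both libraries, the last CAPNS1 start goes from 27.0% in H2087 to 47.4% in H596, and the CAST start at +40623 from 58.5% to 40.0%.

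CAST is listed with 22 transcripts, 12 of which held at least 1% of the gene FPKM in either library. Apart from NR_104285, which had 5 counts in H2087 and 0 in H596, they start in an upstream region, at 3 sites within 942 bases, or at +40623, position 96038364. The 9 upstream transcripts had a summed FPKM of 40.3 in H2087 and of 48.5 in H596, and the 12 transcripts of the downstream start had 56.8 and 32.3. The downstream start held 58.5% of the CAST FPKM in H2087 and 40.0% in H596, and the upstream region 41.4% and 60.0%. The libraries thus differed in which region held most of the CAST estimate.

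The sum over the downstream start was 1.76-fold lower in H596, and that over the upstream region was 1.21-fold higher. Most transcripts were lower in H596 in either group, 9 of the 12 downstream and 6 of the 9 upstream. The share over all listed transcripts was not worked out. Reads are divided among the transcripts of a gene by estimate, so these are not separate observations. By FPKM the higher upstream sum rested on NM_001330628. Without it the other 8 upstream transcripts summed to an FPKM of 14.4 in H2087 and of 13.5 in H596, an order that turns with TPM. The 5 transcripts of the start at +120 were all lower, with a summed FPKM of 4.20 and 2.38. With TPM the factors of the downstream and upstream sums were 1.55 and 1.37, and after TMM scaling 1.93 and 1.10, so both sums kept their direction under each scaling.

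The leading CAST transcript was the same in both libraries. NM_001330628, from the start at +942, had an FPKM of 25.9 in H2087 and of 35.0 in H596, which is 26.7% and 43.3% of the gene. NM_173060, from the downstream start, had an FPKM of 20.1 in H2087 and of 9.04 in H596, or 20.7% and 11.2%. NM_001330632, from the same start, had 17.1 and 9.09, or 17.6% and 11.2%. These downstream transcripts were close behind the leading one in H2087 and far behind it in H596.

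A further 3 CAST transcripts were at an intermediate level. NM_001042442, from the first start, had an FPKM of 7.52 in H2087 and of 9.22 in H596. NM_001042444 had 6.74 and 4.37, and NM_001284212 had 6.65 and 4.45, both from the downstream start. Of the other 6 above 1%, NM_001330629 had an FPKM of 2.26 and 1.48, NM_001750 1.37 and 0.720, NM_001042445 1.21 and 0.794, NM_001042443 1.19 and 1.55, NM_001330631 1.02 and 0.802, and NM_001330630 0.978 and 0.658. The 10 transcripts under 1% in both libraries summed to an FPKM of 5.18 in H2087 and of 3.67 in H596. No CAST transcript held most of the estimate in either library.

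**Figure D5:**
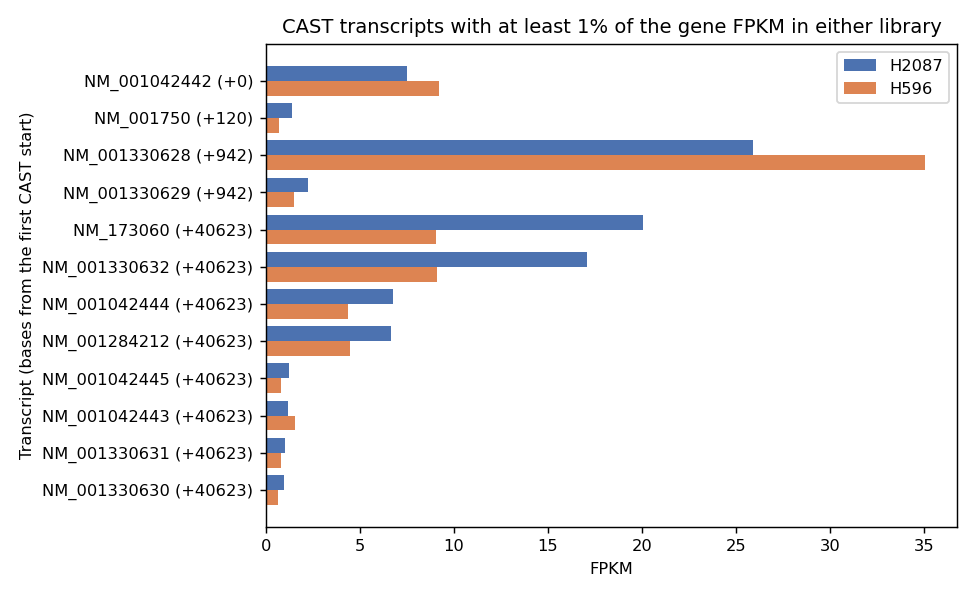
FPKM of the 12 CAST transcripts with at least 1% of the gene FPKM in H2087 (blue) or H596 (orange), ordered by start, with the distance in bases from the first CAST start in parentheses. NM_001330628 is the longest bar in both libraries (25.9 and 35.0), and the 4 highest transcripts of the downstream start (+40623) are all lower in H596.

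Of the other genes of the calpain family, 8 were found in the table, and 2 of these 8 had a mean FPKM of at least 1. Both passed this filter only through their H596 value, so their being higher in H596 is not read as a result about the family. CAPN9 and CAPN12, lower in H596, fell below that mean. CAPN3, known as the muscle calpain, had an FPKM of 0.452 in H2087 from 65 counts and 4.51 in H596 from 722 counts, 9.97-fold higher. CAPNS2, a single-exon relative of the small subunit gene, had 2 counts in H2087 and an FPKM of 10.2 from 586 counts in H596, a ratio of 248 (exact 95% interval, 68.5 to 2056). CAPNS2 lies within the span of LPCAT2, which had an FPKM of 3.98 in H2087 and of 2.92 in H596, and how reads shared with CAPNS1 were divided is not stated. In H596 the level of CAPNS2 remained far below the 327 of CAPNS1.

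CAPN12, known from hair follicles, had an FPKM of 1.25 from 188 counts in H2087 and 0 counts in H596, at least 74.2-fold lower, which is the pattern of CAPN13. The CAPN12 gene shares 341 bases with the end of ACTN4, which had an FPKM of 169.9 and 198. CAPN9, the partner of CAPN8 in a gastric calpain complex, had an FPKM of 1.12 in H2087 and of 0.821 in H596, next to 26.8 and 0.161 for CAPN8. CAPN14 had 16 and 54 counts, and CAPN6, which lacks the catalytic cysteine, had 2 and 0. CAPN11, a testis calpain, and ADGB, which carries a calpain-like domain, had 0 counts in both libraries.

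Genes of known calpain substrates were spread in both directions. Of 23 substrate genes, 21 had a mean FPKM of at least 1, of which 2 were at least 2-fold higher in H596, 4 at least 2-fold lower and 15 in between. Over all genes 18.2% were higher and 14.2% lower by that measure. The median difference of the substrate genes was -0.08, against 0.12 over all genes. The split depended on the scaling, with 5 higher and 4 lower by TPM, and 2 higher and 5 lower after TMM scaling. EGFR, a receptor kinase, had an FPKM of 37.8 in H2087 and of 265 in H596, and PTPN1, a phosphatase released from membranes by calpain, had 10.1 and 39.3. VIM, the intermediate filament protein vimentin, had an FPKM of 51.8 in H2087 and 0 counts in H596, at least 2094-fold lower. MYC, a transcription factor, had 225 and 39.5. JUN (28.1 and 8.53) and CTTN (154 and 54.3), the others that were lower, are named after their values were seen. Of the adhesion substrates, talin (TLN1) had an FPKM of 33.5 and 22.1 and integrin beta 1 (ITGB1) one of 71.96 and 134, also named after their values were seen. The difference of ITGB1 was 0.89 by FPKM, under 2-fold, and 1.08 by TPM, above it.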

How the data were processed

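RNA-seq tables of 1 H2087 and 1 H596 library were analysed. Per the labels, the submitters' processing notes and the study's methods, the authors prepared stranded mRNA libraries, trimmed reads with Trimmomatic, aligned them to hg19 (GRCh37) with HISAT2 2.0.5 and estimated abundance with StringTie 1.3.3b for RefSeq transcripts. The authors deposited estimated counts as whole numbers, without stating how these were made, and FPKM, scaled to length and library size. For all 10 genes the transcript FPKM summed to the gene FPKM within 0.01.

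From these tables, FPKM intervals were computed as 95% Wilson intervals for the part of all counts that a gene took, and ratio intervals from Poisson errors on the log scale. The 2-fold comparison used a pseudocount of 1 and a mean FPKM of at least 1. The floor for a count of 0 was 3 counts per library. TMM factors were from edgeR 4.0.16 (R 4.3.3). Reference bases and strands came from GRCh37 and GENCODE, in which all 10 genes overlapped the deposited position. Calls and intervals were tested on simulated counts with Poisson error only. This checked the computation, and errors of transcript assignment or between replicates were not covered. Python 3.11.15, numpy 2.4.6, pandas 2.3.3 and scipy 1.17.1 were used. All 10 members, the listed family genes, each CAST transcript above 1% and, in the substrate and protease lists, the 2 highest genes and the 2 most different ones towards either library were named. The members and lists were chosen with earlier results of these data known.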

Additional observations from a re-analysis of the deposited data

How the results depend on the processing

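No paired analysis was possible because H2087 and H596 each had 1 library, and for that reason none could be left out. Of 40 recomputed values, 26 stayed within 1.5 times the count or within the counting interval and 14 did not. The 26 include ratios from summed transcripts, which could not differ because transcript FPKM sum to the gene FPKM. A count could also stay while its genes changed. After TMM scaling CAPN1 and CAPNS1 left the members called and CAPN10 entered. At 4-fold, 1 member (CAPN8) and 3 substrates passed, and at 1.5-fold 13 substrates, since the threshold itself changed. At an FPKM of at least 10, 6 members passed in H2087 and 6 in H596, against 10 and 8 at an FPKM of at least 1. CAPN1 plus CAPN2 over CAPNS1 was 4.56 in H2087 and 2.64 in H596 from the highest transcripts, and 5.13 and 3.19 from counts without length. The same sum over CAST was 12.4 and 11.7 from the highest transcripts, and 2.63 and 4.11 from counts. The share of the leading CAST transcript among transcripts above 1% was 28.2% in H2087 and 45.4% in H596. Members higher and lower by 2-fold numbered 3 and 1 by FPKM, 3 and 1 by TPM, 1 and 2 after TMM scaling, and 2 and 2 after centring on the median, against 2376 and 1850, 3211 and 1683, and 2049 and 2126 of all genes for the first 3. Substrate genes numbered 2 higher and 4 lower by FPKM, 5 and 4 by TPM, and 2 and 5 after TMM scaling. Depth limits CAPN8 and CAPN13 in H596, at 20 and 0 counts.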

Other observations

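Another family of cysteine proteinases and its inhibitors, the lysosomal cathepsins and the cystatins, was read for comparison with the calpains. Of 11 cathepsin genes, 10 had a mean FPKM of at least 1, of which 6 were at least 2-fold higher in H596 and 2 at least 2-fold lower, against 18.2% and 14.2% of all genes. After TMM scaling 4 were higher and 2 lower, and by TPM 6 and 2. CTSH, an aminopeptidase, had an FPKM of 49.0 in H2087 and of 373 in H596. CTSC, which activates serine proteinases of granules, had 289.8 and 66.2. Summed over the 11 genes, the FPKM was 668 in H2087 and 752 in H596.

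Of 9 cystatin genes, 4 had a mean FPKM of at least 1, with 1 at least 2-fold higher in H596 and 1 lower by FPKM, 2 and 1 by TPM, and 1 and 2 after TMM scaling. CSTB, a cytosolic inhibitor, had the highest mean over both libraries, with an FPKM of 354 in H2087 and of 182 in H596. CSTA, its relative and the highest cystatin in H596, had 0 counts in H2087 and an FPKM of 301.1 in the H596 library, while the secreted CST6 had 49.3 in H2087 and 0 counts in H596. The summed FPKM of cathepsins over that of cystatins was 1.296 in H2087 and 1.11 in H596, next to 3.49 and 5.61 for CAPN1 plus CAPN2 over CAST. No replicate check is possible for any of these values.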
